A study of Mus musculus with 6 samples.

Results

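Tuft cells are rare chemosensory cells of the gut epithelium, and the 10 genes described here are known for their part in these cells: Pou2f3, Trpm5, Il25, Dclk1, Avil, Sh2d6, Sh2d7, Hpgds, Alox5 and Ltc4s. They are given by name, by a rule that uses no measured value, although earlier results of these data were known when they were chosen, and all 10 were among the 19938 genes measured, each by 1 probe set with a single gene symbol. The samples were 6 whole colon tumours of mice, in 2 genotypes of 3 tumours, each profiled on 1 expression array. Control tumours were Dnmt1chip/+; ApcMin/+ and hypomethylated tumours Dnmt1chip/c; ApcMin/+. All mice therefore carried the Dnmt1chip allele, a hypomorphic allele of Dnmt1, whose enzyme restores methylation on newly made DNA, together with ApcMin, a truncating allele of the tumour suppressor Apc. The remaining Dnmt1 allele was wild type in the controls and the knockout allele c in the hypomethylated group; per the series text, Dnmt1chip/+ mice have normal methylation levels, and the loss in Dnmt1chip/c mice was known at pericentromeric repeats. The background was an F1 hybrid of C57BL/6 and 129Sv4; mice were given 2% (w/v) dextran sodium sulfate (DSS), which injures the colon and promotes tumours, from the age of 6 weeks, with harvest at 20 weeks. These are germline alleles, carried also by the stroma and immune cells of a tumour. Nothing in the labels says that tumours of a group came from separate mice, and the sample descriptions of all 3 hypomethylated tumours share a number, as do those of 2 of the 3 controls; p-values therefore cover only the spread among these 6 tumours, which may be within a mouse.

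Tuft cells depend on the transcription factor POU2F3. They sense luminal compounds through a taste-like cascade that ends in the ion channel TRPM5, and answer with the cytokine IL-25 and with lipid mediators, the cysteinyl leukotrienes and prostaglandin D2. IL-25 acts on type 2 innate lymphoid cells, whose IL-13 in turn drives epithelial progenitors towards tuft and goblet cells. In the mouse intestine and its tumours DCLK1 is the marker most used for tuft cells. Several of the 10 genes are also used by other cells: the eicosanoid enzymes by mast cells and macrophages, and Dclk1 by neurons and some stromal cells. The tumours were measured whole, so fewer cells of a type and less RNA per cell cannot be told apart.

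The tuft cell genes did not move together. Hpgds fell by 1.81 on the log2 scale, or 3.52-fold, and Avil fell by 1.38, or 2.60-fold. Trpm5, Dclk1, Sh2d7 and Ltc4s rose, by 0.48, 0.43, 0.32 and 0.31, or 1.24-fold to 1.40-fold. Pou2f3, Alox5, Il25 and Sh2d6 did not pass the test. A gene was called where limma, fitted over all 19938 genes, gave a Benjamini-Hochberg adjusted p under 0.05. By that rule 32.0% of all genes were called, 10.7% higher and 21.3% lower, so 6 of 10 called members, 4 higher and 2 lower, are read against a background in which calls were common. The values of the 2 groups did not overlap in 7 of the 10 members, against 46.4% of all genes. The median difference of the 10 members was 0.14, and that of all genes was -0.0058. Values are taken as log2 values (the base was inferred), and each probe set is centred on its median over the 6 tumours, so values show how tumours differ, not how strongly a gene was expressed, and genes cannot be ranked by level. The number of arrays limits the precision. A trace of level survives in the numeric steps of the values: Hpgds, Avil, Dclk1 and Sh2d6 belonged to the 51.7% of genes inferred to have had uncentred values of 8 or more on every array, called bright here. The other 6 members were not bright.

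**Figure D1:**
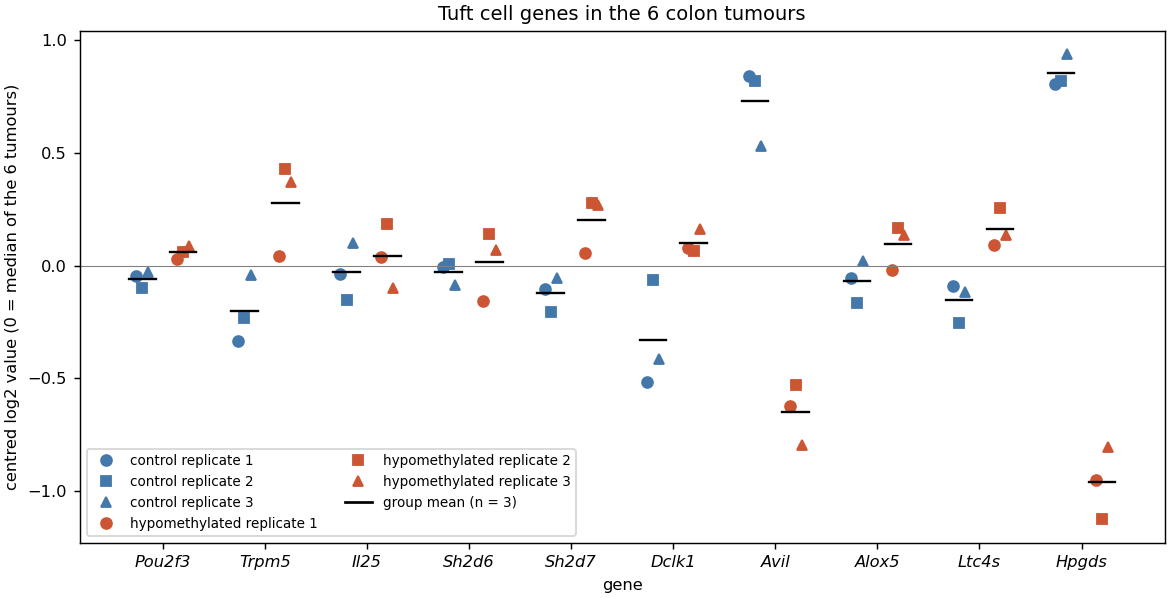
Centred log2 value (vertical axis, 0 is the median of the 6 tumours) of each of the 10 tuft cell genes in the 3 control tumours (blue) and the 3 hypomethylated tumours (orange), with marker shapes for replicates and black lines for group means. Avil and Hpgds lie far lower in all 3 hypomethylated tumours, with gaps of 1.06 and 1.61 between the groups, and the other 8 genes differ by under 0.5.

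Dnmt1 itself was lower in all 3 hypomethylated tumours, by 0.87 ± 0.06 (SE; limma, adjusted p = 3.13e-04), and Apc differed by -0.23 ± 0.10 (SE; adjusted p = 0.115). The position of the Dnmt1 probes relative to the altered parts of the alleles is not given in the sources used here; whether the lower value reflects the alleles directly is therefore unknown. Of 12 general epithelial markers 11 were bright, Epcam, Cdh1 and Krt8 among them.

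Since the groups differ in a DNA methyltransferase, which acts on CG dinucleotides, and since POU2F3 belongs to a family of factors that bind an octamer motif, the promoters of the called members are shown with both features. RefSeq promoter windows (build GRCm38.p6, 250 bases before to 50 after an annotated start) were matched for 8 of the 10 members. The windows below are those of both genes that fell, Hpgds at chr6:65144681-65144980 (minus strand) and Avil at chr10:127000459-127000758 (plus strand), and of 2 that rose, Trpm5 at chr7:143094593-143094892 (minus strand) and Ltc4s at chr11:50238483-50238782 (minus strand). They read 5′ to 3′ along the gene. Capitals mark CG dinucleotides and, in Hpgds, also the octamer.
Hpgds: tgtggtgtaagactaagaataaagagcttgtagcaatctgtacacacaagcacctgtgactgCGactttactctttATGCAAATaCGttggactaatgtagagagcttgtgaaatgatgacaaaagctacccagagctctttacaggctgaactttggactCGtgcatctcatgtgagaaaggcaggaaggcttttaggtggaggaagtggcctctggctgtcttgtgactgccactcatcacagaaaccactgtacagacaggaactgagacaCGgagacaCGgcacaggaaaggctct
Avil: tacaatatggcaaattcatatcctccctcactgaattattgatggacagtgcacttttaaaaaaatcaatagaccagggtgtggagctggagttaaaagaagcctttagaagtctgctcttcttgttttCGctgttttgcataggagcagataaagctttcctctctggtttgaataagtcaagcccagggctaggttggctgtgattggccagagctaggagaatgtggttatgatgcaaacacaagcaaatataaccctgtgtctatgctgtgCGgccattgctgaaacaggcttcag
Trpm5: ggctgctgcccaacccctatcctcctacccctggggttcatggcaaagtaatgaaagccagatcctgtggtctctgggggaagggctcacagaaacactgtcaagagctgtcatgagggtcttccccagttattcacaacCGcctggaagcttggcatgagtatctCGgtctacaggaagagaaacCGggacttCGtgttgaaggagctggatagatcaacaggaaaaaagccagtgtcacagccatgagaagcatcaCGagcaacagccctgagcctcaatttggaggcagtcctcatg
Ltc4s: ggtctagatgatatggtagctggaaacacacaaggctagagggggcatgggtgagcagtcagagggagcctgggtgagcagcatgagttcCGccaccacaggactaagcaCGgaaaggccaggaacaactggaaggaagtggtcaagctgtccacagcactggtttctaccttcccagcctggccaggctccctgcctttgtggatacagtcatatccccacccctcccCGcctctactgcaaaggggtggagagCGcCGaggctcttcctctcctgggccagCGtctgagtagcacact

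The windows held few CG dinucleotides: 2 in Avil, 4 in Sh2d7, 5 in Trpm5 and Hpgds, 6 in Sh2d6 and Ltc4s, 7 in Alox5, and 5 and 6 in the windows of the 2 annotated Dclk1 starts. None of these 9 windows exceeded the median of 7 among all 32851 windows, whose upper quartile was 20. A count of at most 7 was common, found in 51.4% of all windows, so it does not set these genes apart. The genes that fell held 2 and 5, and those that rose held 4 to 6. The octamer, written ATGCAAAT, or ATTTGCAT on the other strand, was in 1 of the 9 windows. That window was of Hpgds, where the motif began 174 bases before the annotated start; it occurs in 1.74% of all windows. For Trpm5, Sh2d7, Alox5 and Ltc4s the annotated start is the 5′ end of the RefSeq gene. For Hpgds and Avil it lies 251 and 644 bases inside the gene, and for Sh2d6 14170 bases inside, so other starts may exist. The 2 annotated starts of Dclk1 lie 61 and 219425 bases inside its gene. No methylation was measured in the data used here, and a motif match is a description of the sequence.

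**Figure D2:**
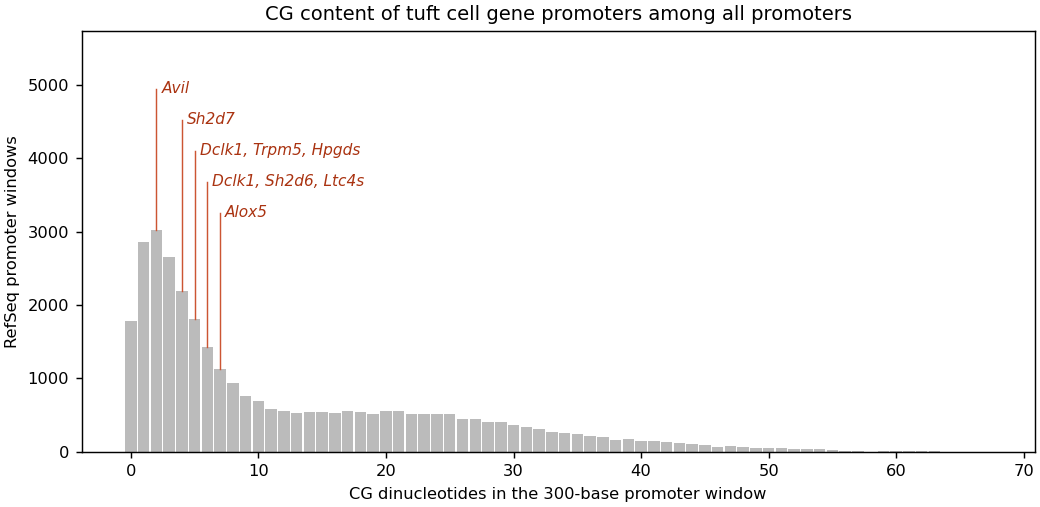
Number of RefSeq promoter windows (vertical axis) by their count of CG dinucleotides (horizontal axis, windows of 300 bases); orange lines mark the counts of the tuft cell genes, with Dclk1 at both of its starts. All 9 windows lie between 2 and 7 CG dinucleotides, in the peak of CG-poor promoters, whose long right tail reaches 67.

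The regulator of the lineage did not pass the test. Pou2f3 (chromosome 9, 43123927 to 43205755, as for every position here in GRCm38.p6) had centred log2 values of -0.045, -0.098 and -0.030 in control replicates 1, 2 and 3, and 0.030, 0.059 and 0.087 in hypomethylated replicates 1, 2 and 3. Every hypomethylated tumour lay above every control tumour, by a gap of 0.06 at the nearest. The difference was 0.12 ± 0.05 (SE; 95% interval -0.0085 to 0.24; limma, adjusted p = 0.144), an interval that includes 0. Pou2f3 passed under quantile normalization (adjusted p = 0.0467) and in none of the other alternative fits.

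Trpm5, the calcium-activated cation channel at the end of the taste cascade (chromosome 7, 143071529 to 143094642), rose most among the members. Its values were -0.33, -0.23 and -0.04 in the controls and 0.04, 0.43 and 0.37 in the hypomethylated tumours. The groups did not overlap, but control replicate 3 and hypomethylated replicate 1 lay close together, with a gap of 0.08. Control tumours averaged -0.20 ± 0.15 (SD, n = 3) and hypomethylated ones 0.28 ± 0.21 (SD, n = 3). The difference of 0.48 ± 0.12 (SE) passed in limma (adjusted p = 0.0221; higher in 3 of 3 tumours). The call did not survive leaving out either control replicate 1 or 2, or either hypomethylated replicate 2 or 3, with differences of 0.41 to 0.60 over the 6 fits that leave out 1 tumour. A two-sided exact permutation test, which cannot go below 0.1 with 3 tumours a group, gave p = 0.1 for Trpm5 and for each of the 6 other members whose groups did not overlap.

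Upstream of TRPM5, the other genes of the cascade were mostly not called. Of 14 measured genes of taste transduction, Trpm5 included, 2 were higher and none lower in limma, and the median difference was 0.16. Calls over all genes were 10.7% higher and 21.3% lower. The second called gene was Trpm4, a closely related channel that is expressed widely outside tuft cells, which rose by 0.97 ± 0.11 (SE; adjusted p = 0.00134). Gnat3, the gustducin alpha subunit, differed by 0.20 (adjusted p = 0.0574), Tas1r2, a sweet receptor subunit, by 0.16 (adjusted p = 0.121), and the bitter receptor gene Tas2r143 by 0.28 (adjusted p = 0.122). The lipase gene Plcb2 and the receptor channel gene Itpr3, which release calcium in this cascade, differed by -0.08 and -0.06. The number of higher genes was 1 without control replicate 1 or 2 or hypomethylated replicate 2 or 3, 3 without hypomethylated replicate 1, 3 after centring of the arrays, 4 with array weights and 5 under quantile normalization. The array weights rested largely on control replicate 1, with 7.7 against 0.51 to 0.99 for the other tumours.

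Il25, the cytokine that tuft cells send to innate lymphoid cells (chromosome 14, 54932695 to 54935837), did not pass either. Its values were -0.04, -0.15 and 0.10 in the controls and 0.04, 0.18 and -0.10 in the hypomethylated tumours. The groups overlapped, with control replicate 2 below and hypomethylated replicate 2 above all tumours of the other group, and the difference was 0.07 ± 0.10 (SE; 95% interval -0.16 to 0.30; limma, adjusted p = 0.635).

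Around Il25, 4 of 17 measured genes of the type 2 circuit rose and 1 fell (median difference 0.05), where 10.7% of all genes rose and 21.3% fell. Il13ra1 and Il4ra, which together form the receptor through which IL-13 acts on epithelium, rose by 0.63 ± 0.06 and 0.77 ± 0.09 (SE; limma, adjusted p = 7.20e-04 and 0.00116). Retnlb, a goblet cell product induced by IL-13 that is also on the goblet cell list below, rose by 4.06 ± 0.60 (adjusted p = 0.00297), and Gata3, a transcription factor of type 2 lymphocytes, by 1.43 ± 0.21 (adjusted p = 0.00277). Rora and Klrg1, on the same list, did not pass, with differences of -0.54 (limma, adjusted p = 0.056) and 0.0034. The gene that fell was Il13ra2, the decoy receptor for IL-13 (-0.28; limma, adjusted p = 0.0241), named after its value was seen; no gene of the circuit was lower with the block, nor without control replicate 1 or 2 or hypomethylated replicate 2 or 3. The cytokine genes themselves did not pass: Il13 differed by 0.01, Il4 by 0.06, Il5 by 0.08 and Il33 by 0.28. Il17rb, the receptor for IL-25, differed by -0.01.

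Dclk1, a microtubule-associated kinase (chromosome 3, 55242303 to 55539068), rose. Its values were -0.52, -0.07 and -0.41 in the controls and 0.08, 0.07 and 0.16 in the hypomethylated tumours. The hypomethylated tumours lay close together, while control replicate 2 stood apart from the other controls and nearly reached them. The means were -0.33 ± 0.24 (SD, n = 3) and 0.10 ± 0.05 (SD, n = 3), a difference of 0.43 ± 0.12 (SE; limma, adjusted p = 0.0275; higher in 3 of 3). The replicate block ended this call, and so did the loss of any of control replicates 1 and 3 and hypomethylated replicates 2 and 3; without control replicate 2 the difference was 0.57 (adjusted p = 0.00478), and over the 6 fits it ran from 0.34 to 0.57. Dclk1 has 2 annotated starts, and its single probe set does not separate transcripts from them. Neuron and glia markers, the other source named above for Dclk1, had a median difference of -0.02, and of the 10 measured, which ran from -0.28 to 0.77, only Tubb3 was called, with -0.28. None of these 10 was bright. Among 12 fibroblast markers 8 fell and 1 rose (median -0.62), where 21.3% of all genes were called lower and 10.7% higher. The lower fibroblast calls ran from 4 without hypomethylated replicate 3 to 11 without hypomethylated replicate 1. The part of such cells in the value of Dclk1 was not tested.

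**Figure D3:**
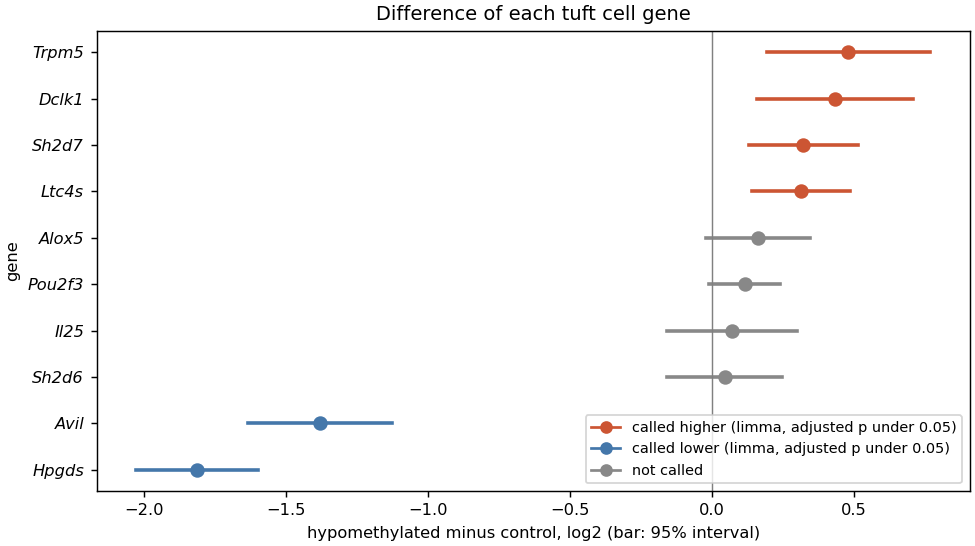
Difference between hypomethylated and control tumours (horizontal axis, log2, n = 3 in each group) of each tuft cell gene, with bars for the 95% interval of the limma fit; orange marks genes called higher, blue genes called lower and grey genes not called. The intervals of Avil and Hpgds reach no higher than -1.13 and -1.60, and those of the 4 called higher between 0.13 and 0.77.

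Of the SH2 domain adaptor genes, Sh2d7 passed the test and Sh2d6 did not. Sh2d7 (chromosome 9, 54534123 to 54545030) had values of -0.11, -0.21 and -0.05 in the controls and 0.05, 0.28 and 0.27 in the hypomethylated tumours. All 3 hypomethylated tumours were higher than all controls, with replicate 1 the lowest of them. The difference was 0.32 ± 0.08 (SE; limma, adjusted p = 0.0217). The call was lost under the block, and also when control replicate 1 or 2, or hypomethylated replicate 2 or 3, was left out.

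Sh2d6 (chromosome 6, 72513641 to 72534206) had values of -0.0047, 0.0047 and -0.09 in the controls and -0.16, 0.14 and 0.07 in the hypomethylated tumours. Hypomethylated replicate 1 was below every control and the other 2 above. The difference was 0.05 ± 0.09 (SE; 95% interval -0.16 to 0.25; limma, adjusted p = 0.737). Whether the adaptor genes differ in their response was not tested.

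Avil encodes advillin, an actin-binding protein of the villin family that lies in the apical bundle of tuft cells (chromosome 10, 127000065 to 127020994). Its values were 0.84, 0.82 and 0.53 in the controls and -0.62, -0.53 and -0.80 in the hypomethylated tumours. Every control tumour was far above every hypomethylated one, and the spread within each group was small beside the gap of 1.06. The means were 0.73 ± 0.17 (SD, n = 3) and -0.65 ± 0.13 (SD, n = 3). Avil fell by 1.38 ± 0.11 (SE) on the log2 scale (limma, adjusted p = 3.80e-04; lower in 3 of 3), and 127 of the 19938 genes fell more. The call held without each tumour in turn, at -1.48 to -1.31. Vil1, the villin gene of the common absorptive brush border, rose by 1.02 ± 0.09 (SE; adjusted p = 5.44e-04) in the same tumours. Sensory neurons also use Avil; the values of neuron and glia markers are those given beside Dclk1, and their part in the fall of Avil was not tested.

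The lipid mediator genes also went both ways. Alox5 encodes the 5-lipoxygenase that starts leukotriene synthesis, Ltc4s the synthase that makes leukotriene C4, and Hpgds the glutathione-dependent synthase that makes prostaglandin D2. Hpgds (chromosome 6, 65117293 to 65144981) had values of 0.81, 0.82 and 0.94 in the controls and -0.95, -1.13 and -0.81 in the hypomethylated tumours. No other member separated the groups as widely, with a gap of 1.61. The means were 0.85 ± 0.07 (SD, n = 3) and -0.96 ± 0.16 (SD, n = 3). Hpgds fell by 1.81 ± 0.09 (SE) on the log2 scale (limma, adjusted p = 1.49e-04; lower in 3 of 3). Only 48 of the 19938 genes, or 0.241%, had a larger decrease, and the call held without each tumour in turn, at -1.89 to -1.73.

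Ltc4s (chromosome 11, 50236461 to 50238532) had values of -0.09, -0.26 and -0.12 in the controls and 0.09, 0.26 and 0.13 in the hypomethylated tumours. All hypomethylated tumours were above all controls. The difference was 0.31 ± 0.07 (SE; limma, adjusted p = 0.0158), and the call ended under the block (adjusted p = 0.0722) and without control replicate 2 (adjusted p = 0.0531).

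Alox5 (chromosome 6, 116410071 to 116461178) had values of -0.05, -0.17 and 0.02 in the controls and -0.02, 0.17 and 0.14 in the hypomethylated tumours. Hypomethylated replicate 1 was below control replicate 3, so the groups overlapped. The difference was 0.16 ± 0.08 (SE; 95% interval -0.02 to 0.34; limma, adjusted p = 0.160). Alox5ap, which presents arachidonic acid to this enzyme, differed by -0.14 (adjusted p = 0.488).

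A wider eicosanoid list held the route from arachidonic acid to leukotrienes and prostaglandin D2, and also other lipoxygenases and receptors. Of its 16 measured genes 4 rose and 5 fell (median difference -0.09). The shares over all genes were 10.7% higher and 21.3% lower. Pla2g4a, the phospholipase that releases arachidonic acid, rose by 0.76 ± 0.11 (SE; limma, adjusted p = 0.00281). After Hpgds the lowest p-values belonged to Alox12 and Alox15, lipoxygenases of other products, which fell by 1.44 ± 0.13 and 1.72 ± 0.15 (adjusted p = 5.40e-04 and 5.55e-04). The inducible cyclooxygenase gene Ptgs2 fell by 1.38 (adjusted p = 0.00287) and Lta4h, which diverts the common intermediate to leukotriene B4, fell by 0.45. Dpep1, a dipeptidase that acts on leukotriene D4, rose by 2.98, and the leukotriene B4 receptor gene Ltb4r1 rose by 0.32. The receptor genes Cysltr1, Cysltr2, Ptgdr and Ptgdr2 did not pass, with differences between -0.35 and 0.02. Lower calls on this list numbered 5 in every alternative fit, and the higher calls numbered 2 under the block and 2 among bright genes, which hold 8 of the 16.

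Mast cells and macrophages also use Hpgds, Alox5 and Ltc4s, and most of their markers had differences below 0 in the same tumours. Of 12 mast cell markers 2 fell, Cma1 by 0.39 and Tpsab1 by 0.65, and none rose; the differences ran from -0.99 to 0.16, with a median of -0.46. The proteases Mcpt1 and Cpa3 differed by -0.55 and -0.68, without passing. Of 12 macrophage markers 4 fell, C1qc by 0.92, Ms4a7 by 0.66, C1qb by 0.94 and Adgre1 by 0.83, and Mertk rose by 1.15, with a median of -0.54. Beside the counts of both lists, 21.3% of all genes were called lower and 10.7% higher. The lowest differences on these lists were -0.99 and -0.94, and 6 of the mast cell markers and 8 of the macrophage markers were bright. Lower macrophage markers numbered 0 without control replicate 2 or 3 or hypomethylated replicate 2 or 3, 1 without control replicate 1 and under the block, 2 with robust eBayes, and 8 without hypomethylated replicate 1. Lower mast cell markers numbered 6 without control replicate 2, 3 without hypomethylated replicate 1 and 7 with array weights, in which control replicate 1 weighed most. Granulocyte markers had a median of 0.07, with 1 of 11 called, Ngp, which fell by 0.78, a call lost under the block and without control replicate 1 or hypomethylated replicate 2 or 3. The part of these cells in the change of Hpgds was not tested.

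Other genes known from tuft cells gave a mixed picture as well. Of 47 measured genes on a list of further tuft cell markers, 7 rose, 5 fell and 35 were not called, with a median difference of 0.12. For comparison, 10.7% of all genes were called higher and 21.3% lower, and the list was not tested against them. Among those that rose were Rgs13, a regulator of G protein signalling (1.24 ± 0.32, SE; limma, adjusted p = 0.0249), the endoplasmic calcium pump gene Atp2a3 (1.50 ± 0.17; adjusted p = 0.00118), the phosphatase gene Ptpn18 (0.77), the actin-bundling protein gene Espn (0.58), Mctp1 (0.50), Strip2 (0.35) and the Ets factor gene Spib (0.31). Those that fell were Nrep (-1.72 ± 0.13; adjusted p = 3.74e-04), Nradd (-1.18), the alpha-tubulin gene Tuba1a (-1.03), Ascl2, a Wnt-driven stem cell factor (-0.55), and the phospholipase gene Plcg2 (-0.35). Several of these genes are not restricted to tuft cells.

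The rises of Ptpn18, Atp2a3, Mctp1 and Espn were called in all 6 fits that leave out 1 tumour and in every other alternative that held them, whereas those of Rgs13, Strip2 and Spib were not. The Rgs13 values were -0.34, -0.17 and -0.24 in the controls and 0.17, 1.23 and 1.57 in the hypomethylated tumours. Hypomethylated replicate 1 was thus much nearer to the controls than to the other 2 tumours of its group. Without it the difference was 1.65 (adjusted p = 4.12e-04), and without any other tumour the call was lost, with the adjusted p reaching 0.0844. Strip2 and Plcg2 likewise kept their calls only when hypomethylated replicate 1 was the tumour left out. Spib lost its call when control replicate 1 or 2, or hypomethylated replicate 2 or 3, was left out, and Ascl2 without control replicate 1. The block ended the calls of Spib, Strip2 and Plcg2, and that of Plcg2 was also lost with quantile normalization, with centring of the arrays and among genes with 1 probe set.

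Within the lineage program, the repressor gene Gfi1b differed by 0.14 (adjusted p = 0.131), and 1810046K07Rik, the symbol under which the POU2F3 coactivator gene Pou2af3 was measured, by 0.22 (adjusted p = 0.132). The receptor gene Sucnr1, which senses succinate, differed by 0.14 (adjusted p = 0.211) and Chat, for acetylcholine synthesis, by 0.10 (adjusted p = 0.459).

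**Figure D4:**
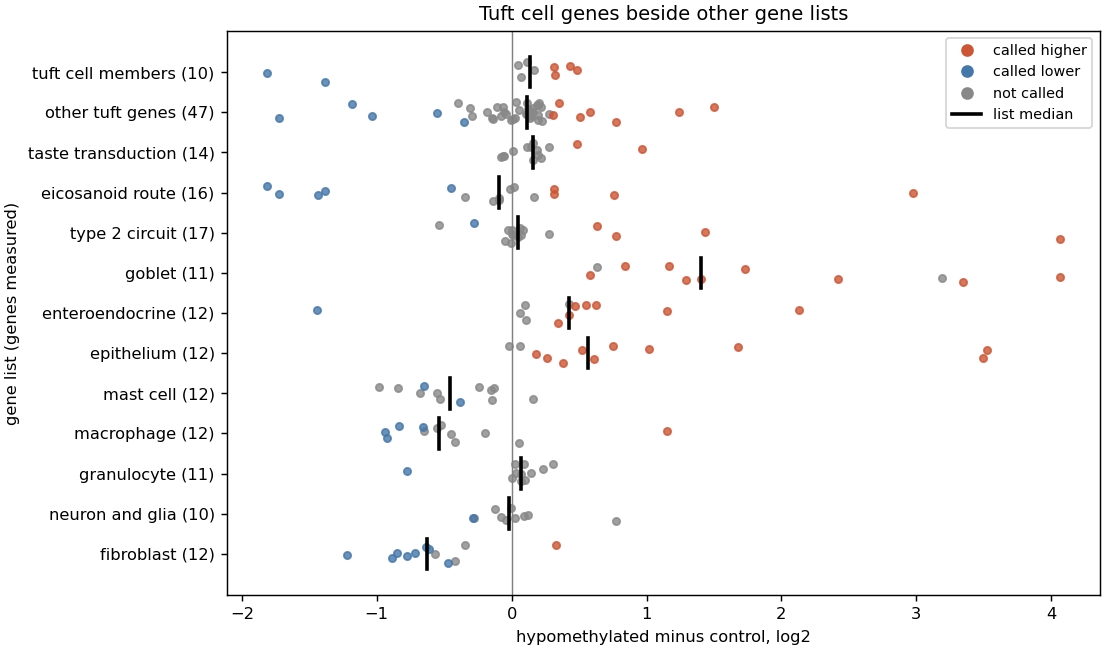
Difference between hypomethylated and control tumours (horizontal axis, log2) of every measured gene on each list (rows, number of genes in brackets; points are spread vertically at random within a row), coloured by its call, with a black line at the list median. The tuft cell rows have medians of 0.14 and 0.12 with calls on both sides of 0, between the goblet cell row, with a median of 1.41, and the fibroblast row, at -0.62.

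Lists for the other secretory lineages of the colon had higher medians. Of 11 measured goblet cell genes 9 rose and none fell, with a median difference of 1.41; Agr2, which folds mucins, rose by 1.17. Of 12 enteroendocrine genes 7 rose and 1 fell, with a median of 0.43; Gcg, for proglucagon, rose by 2.13, while Pyy, for peptide YY, fell by 1.44. General epithelial markers rose in 10 of 12 with none lower (median 0.56), among them Cdx2 by 3.49, while Epcam and Krt18 differed by 0.06 and -0.02. These counts of higher genes stand beside 4 of 10 for tuft cell genes and 10.7% of all genes, a comparison that was not tested. The lists differ in their share of bright genes, which was 90.9% for goblet, 33.3% for enteroendocrine and 40.0% for tuft cell genes. A fold against a level near an array's floor can understate a change. The distance of these genes from a floor is not known, and its part in these medians was not tested. The part of the epithelial and stromal shifts in the tuft cell values was not tested.

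The tumours of a group also differed among themselves. Hypomethylated replicate 1 was the lowest of its group in 6 of the 10 tuft cell genes and the highest in none; over all genes it was the lowest in 36.0% and the highest in 31.1%. Hypomethylated replicate 2 was the highest in 7 of 10, against 41.3% of all genes, and control replicate 2 the lowest of the controls in 5 of 10, against 41.3%. Some members varied together within the groups. Over the 6 deviations from the group means, which leave 4 degrees of freedom, Sh2d7 correlated with Alox5 at r = 0.974, Pou2f3 with Alox5 at 0.886, Pou2f3 with Sh2d7 at 0.856 and Trpm5 with Sh2d7 at 0.836. None of Sh2d7, Alox5, Pou2f3 and Trpm5 was bright, and such correlations among other genes that were not bright were not examined. Of the 45 pairs of members, 14 were above 0.5 and 6 below -0.5, with a median of 0.156. Avil and Hpgds, which fell together between the groups, correlated at -0.866 within them. Dclk1 correlated at -0.755 with Ltc4s. These coefficients rest on 6 tumours, in each of which all members were read from the same array, and are given as a description.

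Over the 6 tumours as a whole, the nearest of all other genes to Pou2f3 by Pearson correlation were Pla2g10 (r = 0.996), Retnlb (0.995) and Bcas1 (0.995). Among 19937 genes Sh2d7 ranked 105 by likeness to Pou2f3, at r = 0.970, Ltc4s 553, Alox5 1128 and Trpm5 1303, whereas Dclk1 ranked 4827 at r = 0.635. Dclk1 in turn was nearest to Pepd (0.996), P4ha1 (0.994) and Acox2 (0.992). Both Dclk1 and Pou2f3 placed every hypomethylated tumour above every control. Their order within the groups differed, where Pou2f3 varied little (SD 0.036 in controls and 0.028 in hypomethylated tumours). With 6 tumours in 2 groups, such a coefficient also holds the difference between the groups.

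**Figure D5:**
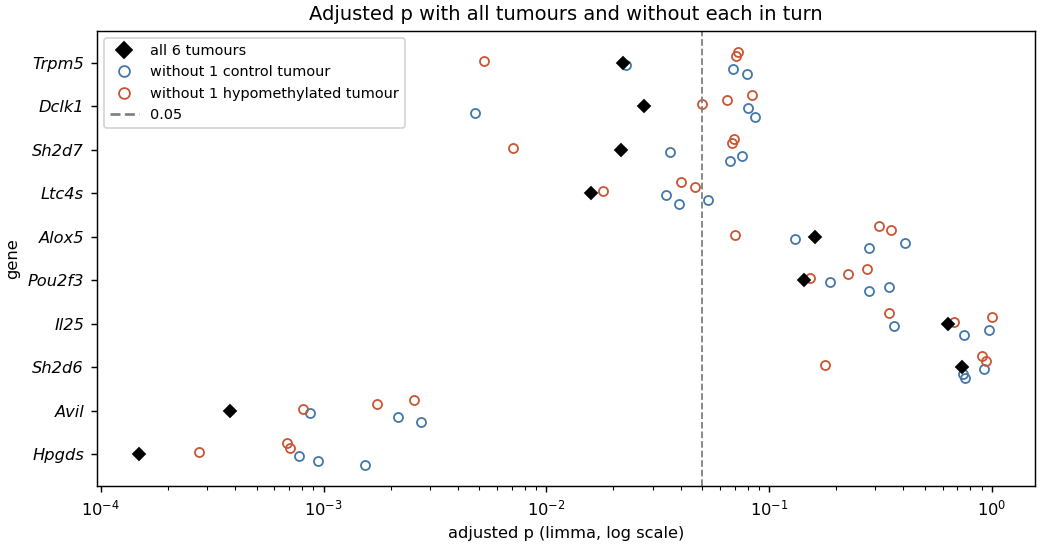
Adjusted p of limma (horizontal axis, log scale) for each tuft cell gene with all 6 tumours (black diamonds) and without 1 control tumour (blue circles) or 1 hypomethylated tumour (orange circles); the dashed line is at 0.05. All circles of Avil and Hpgds lie at or below 0.00273, those of Trpm5, Dclk1, Sh2d7 and Ltc4s straddle the line, and those of the other 4 lie to its right.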

How the data were processed

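Total RNA of 6 colon tumours was biotin-labelled and hybridised to arrays, per the labels' protocols; 4 sample descriptions name the array type as MoGene 1.0 ST. Deposited values, 1 per probe set and array for 28856 probe sets, are taken as log2 values. The base was inferred and every fold rests on it; how arrays were summarised and normalized is not stated in the labels or files. Every deposited row has a median of 0 (within 1e-06), and a coarser numeric step, shown by 48.2% of probe sets, marks uncentred values of 8 or more (bright); a few dimmer sets could show it by chance.

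The 21789 probe sets with exactly 1 gene symbol were averaged to 19938 genes, 19856 of them matched by Entrez number to RefSeq (GRCm38.p6); 1621 probe sets with several symbols and 5446 with none were not used. Groups follow the genotypes in the titles. Differences were tested with lmFit and eBayes of limma 3.58.1 in R 4.3.3, two-sided, on all 6 tumours with no filter and no block (3.02 prior degrees of freedom), with Benjamini-Hochberg adjustment over all genes. Lists are described by counts and medians, without a list test. Named genes are all members, called genes of the further tuft list, the lowest p-values of each other list, and the nearest genes to Pou2f3 and Dclk1; further genes given as examples were chosen after their values were seen. Members, lists and rules were chosen with earlier results of these data known. Alternatives were the replicate number as a block, quantile normalization, centring of arrays, array weights, robust eBayes, bright genes alone, genes with 1 probe set, and leaving out each tumour. On simulated data of this comparison (19938 genes) changes of 0.5, 1 and 2 were given to 67, 67 and 66 genes. They were recovered in 55.2%, 94.0% and 97.0% of changed genes, with 7 false calls among 171. Far fewer genes were changed there than were called in the tumours (32.0%), and recovery at such a share was not tested. Some list genes are not reported here. Promoter windows come from RefSeq.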

Additional observations from a re-analysis of the deposited data

How the results depend on the processing

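Both falls, of Hpgds and Avil, were called in every alternative fit. The rises were less stable: higher members numbered 1 (3 members called in all) with the replicate number as a block, 1 (3 in all) when the test was restricted to bright genes, which hold 4 of the 10, and 5 under quantile normalization. When bright genes alone were tested, calls were commoner in each direction than the 10.7% higher and 21.3% lower of all genes. Counts of calls among bright genes are therefore not to be read against those shares. With the block, the lower calls over all genes numbered 2714. Same-numbered tumours did not deviate together (correlations of -0.29, -0.31 and -0.22, and 0 of 6 tumours correlated best with their own number). With 3 tumours a group these few values cannot settle whether the numbers pair the samples. Of the further tuft cell genes, 12 were higher under quantile normalization and 3 among bright genes, which hold 22 of the 47. Leaving out 1 tumour gave 1 to 4 higher members and 3 to 6 called members; higher members numbered 1 without control replicate 1 or 2 and without hypomethylated replicate 2 or 3. It gave 4 to 8 higher and 3 to 8 lower further tuft cell genes (4 higher without those same tumours, 3 lower without control replicate 1, 8 lower without hypomethylated replicate 1), and over all genes 4199 to 6593 calls, 1407 to 2323 higher and 2792 to 4270 lower, with the lowest counts without control replicate 1. The difference of Sh2d6, never called, turned to -0.014 without hypomethylated replicate 2 (range -0.014 to 0.13). The other genes followed through the alternatives were 48: Dnmt1, Apc and those named from the lists by rule. Among these, 41 alternative values lost a call, 15 gained one and none changed sign. Genes given as further examples, and the genes nearest to Pou2f3 and Dclk1 other than Retnlb, were not in this count. None of the 48 genes or the 10 members has several probe sets, so probe sets could not be set against each other. Levels were not kept by the centring, so detection limits could not be set.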
